A study of Mus musculus with 6 samples.

Results

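The genes described here are 7 costimulatory and checkpoint molecules of antigen-presenting cells: Cd274 (PD-L1), Pdcd1lg2 (PD-L2), Cd80 (B7-1), Cd86 (B7-2), Icosl (the ICOS ligand), Cd40 and Cd83. They were chosen by name, as the probes whose annotated gene symbol is 1 of the 7, which gave 9 of 16281 probes and 7 of the 10698 genes named on the array. Each was read in RAW 264.7, an established line of mouse macrophages, after 48 h with lipopolysaccharide (LPS, 100 ng/ml) and LPS-binding protein (LBP, 100 pM), against untreated cells of the same line at 48 h. LPS is a glycolipid of the bacterial outer membrane, and LBP, a protein of blood plasma, passes it to CD14 on the cell. Treated and untreated total RNA were hybridised together on 6 two-colour arrays, 3 with the treated RNA in Cy5 and 3 with it in Cy3, and both orientations hold a set 1, a set 2 and a set 3. Some label fields and the series title write RAW 264.4 for the same cells. All cells are 1 line, and whether each set was a culture of its own is not stated. P-values and errors therefore measure only the spread between sets, or between single arrays where a fit over single arrays is named. Either spread may be technical.

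A T cell responds fully only when recognition of its antigen is joined by a second signal from the presenting cell. CD80 and CD86 give that signal through CD28, or restrain the T cell through CTLA-4, and the ICOS ligand acts through ICOS on T cells that are already activated. PD-L1 and PD-L2 bind PD-1 and dampen the response. CD40 works in the other direction, since it receives the T cell's CD40 ligand and activates the macrophage, and CD83 is a surface protein of mature dendritic cells that holds MHC class II and CD86 at the surface. In macrophages, LPS and interferons are known inducers of several of these genes.

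RefSeq promoter sequences (GRCm38.p6, 250 bases before to 50 bases from the gene's start) were found for 4 of the 7 genes, Cd274, Pdcd1lg2, Cd80 and Icosl. Cd274 and Pdcd1lg2 are shown because they lie on the same chromosome and read differently on the arrays, and Cd80 because it held a match. Capitals mark the match.
Cd274, chr19:29367188-29367487, + strand: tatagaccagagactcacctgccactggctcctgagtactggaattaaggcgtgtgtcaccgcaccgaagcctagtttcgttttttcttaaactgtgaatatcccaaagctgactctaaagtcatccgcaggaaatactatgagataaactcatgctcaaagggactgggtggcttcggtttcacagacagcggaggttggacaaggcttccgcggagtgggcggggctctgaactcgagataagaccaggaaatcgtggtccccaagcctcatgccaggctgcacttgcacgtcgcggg
Pdcd1lg2, chr19:29410669-29410968, + strand: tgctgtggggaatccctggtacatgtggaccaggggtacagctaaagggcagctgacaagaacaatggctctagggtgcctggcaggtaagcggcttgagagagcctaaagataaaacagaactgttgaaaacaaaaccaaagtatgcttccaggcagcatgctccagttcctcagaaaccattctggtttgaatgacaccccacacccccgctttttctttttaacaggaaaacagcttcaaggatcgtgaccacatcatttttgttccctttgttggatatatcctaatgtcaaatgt
Cd80, chr16:38458683-38458982, + strand: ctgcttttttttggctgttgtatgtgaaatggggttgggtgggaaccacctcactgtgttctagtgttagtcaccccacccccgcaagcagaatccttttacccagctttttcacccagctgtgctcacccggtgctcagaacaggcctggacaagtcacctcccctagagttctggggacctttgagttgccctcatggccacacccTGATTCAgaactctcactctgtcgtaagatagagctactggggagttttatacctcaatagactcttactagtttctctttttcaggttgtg
Each was searched on both strands for the letters of 4 motifs. These were kappaB as GGGA and TCC around any 3 bases, the interferon-stimulated response element as TTTC on either side of any 2 bases, the GAS element of STAT factors as TTCNNNGAA, and AP-1 as TGANTCA. The 1 match was an AP-1 match, TGATTCA, in the Cd80 promoter, with its first base 42 bases before the start, and it overlapped no other match. Only these letters were searched, so sites spelled otherwise would be missed, and a promoter without a match may still hold a site. Of all 32851 promoters of this length, 7.81% held the AP-1 letters, 8.3% the GAS letters, 4.59% the kappaB letters and 3.44% the response element letters. The Icosl promoter held 68% G and C and 26 CpG pairs, against 52.7% and 15 in Cd274, 49.7% and 3 in Cd80, and 46% and 3 in Pdcd1lg2.

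After 48 h of LPS and LBP, transcripts of the checkpoint ligand Cd274, the receptor Cd40 and the costimulatory ligand Cd80 were higher in treated cells, and those of Cd83 were higher by a smaller margin. Cd274 rose by 1.70 ± 0.21, Cd40 by 1.62 ± 0.12 and Cd80 by 1.07 ± 0.15, as log2 ratios of treated over untreated cells (mean ± SD of 3 set means). Cd86, the other CD28 ligand, stood at 0.23 ± 0.13 and did not pass the test. Of the 9 probes, 6 had a value on all 6 arrays and were tested, and 5 of the 6 (4 genes) rose. In the same fit 27.1% of the 12724 probes tested changed, with 14.8% rising and 12.2% falling. A probe counted as changed at a limma adjusted p under 0.05, over all probes tested. Of the 6 probes, 5 were above 0 on all 6 arrays, as were 16.1% of all tested probes, and the median of all tested probes was -0.01. With zeros kept as values, 3 member probes rose (Cd274, Cd40 and Cd80), against a background of 8.64% called, 5.55% higher and 3.1% lower. That fit takes in all 16281 probes, 1011 of them at 0 on every array, so adjusted p also shifts for probes without a zero.

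Pdcd1lg2 and both Icosl probes were outside that test, because at least 1 of their arrays was listed at exactly 0, which was read as a missing value. The base of the deposited logarithm is not stated and was taken as 2. With base 2 the rise of Cd274 is 3.24-fold and with the natural logarithm it would be 5.45-fold. The sign was checked on Il1b, Il6, Tnf and Nos2, textbook LPS-induced genes, whose 9 probes gave positive ratios throughout. A two-colour ratio gives no level of expression, so the genes are ordered here by their difference between treated and untreated cells alone.

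**Figure D1:**
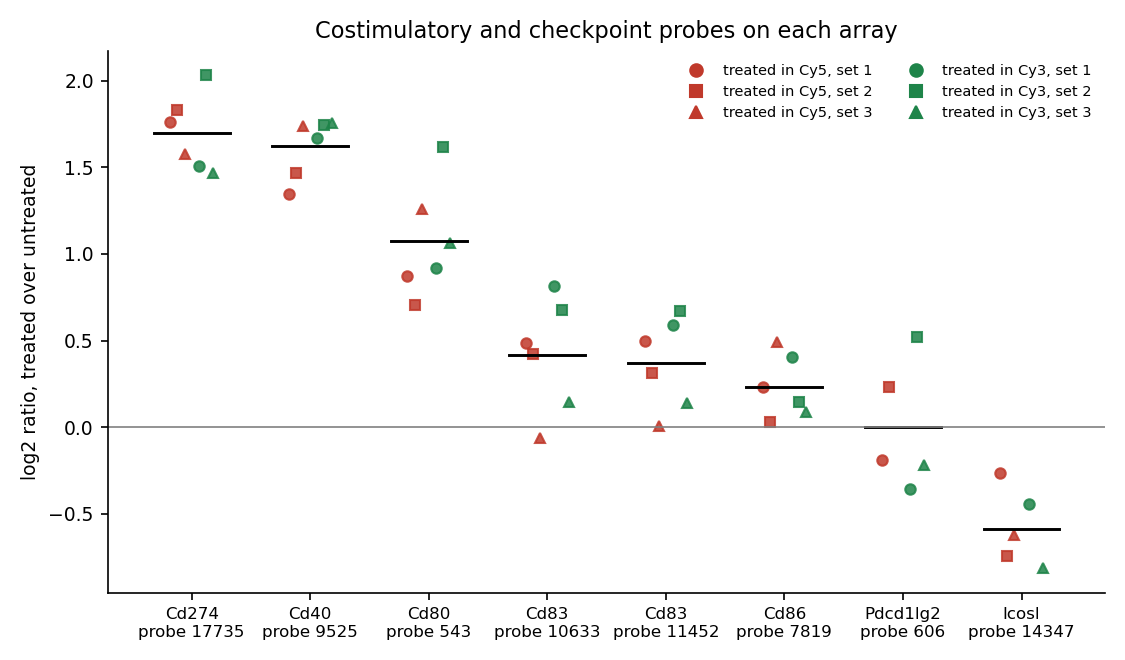
Log2 ratio of treated over untreated cells (y axis) for the 8 costimulatory and checkpoint probes that had values (x axis), 1 point per array, coloured by the dye of the treated RNA and shaped by set, with a bar at the mean of both orientations. The points of Cd274, Cd40 and Cd80 lie between 0.70 and 2.03, and those of Icosl between -0.81 and -0.26.

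Among the ligands of PD-1, Cd274 and Pdcd1lg2 read differently. Cd274 had log2 ratios of 1.76, 1.83 and 1.57 in sets 1, 2 and 3 with treated RNA in Cy5, and of 1.51, 2.03 and 1.47 with treated RNA in Cy3. It was higher in treated cells on all 6 arrays, and set 2 gave the highest value in either dye. Its mean was 1.70 (limma 95% interval 1.46 to 1.93, adjusted p = 9.98e-06), above 98.7% of the tested probes.

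Pdcd1lg2 had log2 ratios of -0.19 and 0.23 in sets 1 and 2 with treated RNA in Cy5, where set 3 was listed at 0, and of -0.36, 0.52 and -0.22 in sets 1, 2 and 3 with treated RNA in Cy3. Both arrays of set 2 were above 0 and the other 3 arrays below it. A fit over single arrays with a dye term, which admits probes with at least 2 values per orientation, gave 0.0023 with a limma 95% interval of -0.32 to 0.33 (adjusted p = 0.993). In that fit 28.9% of 14629 probes were called, 15.4% higher and 13.6% lower, and arrays count as independent, so its intervals take no account of sets. The interval for Pdcd1lg2 lies below that for Cd274, which in the same fit was 1.49 to 1.90.

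The ligands of CD28 also stood apart. Cd80 had log2 ratios of 0.87, 0.70 and 1.26 in sets 1, 2 and 3 with treated RNA in Cy5, and of 0.92, 1.62 and 1.06 with treated RNA in Cy3. All 6 arrays were above 0, and the lowest and the highest value both came from set 2. The mean was 1.07 (limma 95% interval 0.86 to 1.29, adjusted p = 8.96e-05), above 97.2% of the tested probes.

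Cd86 had log2 ratios of 0.24, 0.031 and 0.49 in sets 1, 2 and 3 with treated RNA in Cy5, and of 0.41, 0.14 and 0.089 with treated RNA in Cy3. These too were above 0 on all 6 arrays, but the lowest was close to 0. Its mean of 0.23 had a limma 95% interval of 0.03 to 0.44 (unadjusted p = 0.0322, adjusted p = 0.0947). The array ranges of Cd80 and Cd86 did not overlap, and Cd80 exceeded Cd86 by 0.84 ± 0.25 (SD of 3 set means), in the same direction on 6 of 6 arrays.

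Icosl was lower in treated cells on every array with a value. One of its probes was listed at 0 on all 6 arrays. The other had log2 ratios of -0.26, -0.74 and -0.62 in sets 1, 2 and 3 with treated RNA in Cy5, and of -0.44 and -0.81 in sets 1 and 3 with treated RNA in Cy3, where set 2 was listed at 0. In the fit over single arrays with a dye term it fell by 0.58 (limma 95% interval -0.82 to -0.35, adjusted p = 0.00379). With zeros kept as values the set means gave -0.48 ± 0.21 and did not pass (limma, adjusted p = 0.102). These fits differ in the zero, the replicate unit and the probes tested, so the call of Icosl depends on the fit used.

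Cd40, which receives the T cell's signal, had the smallest spread between arrays of the 8 probes with values. Its log2 ratios were 1.35, 1.47 and 1.74 in sets 1, 2 and 3 when Cy5 carried the treated RNA, and 1.67, 1.75 and 1.76 when Cy3 did. All 6 lay within 0.41 of each other, and set 3 was the highest in either dye. The mean was 1.62 (limma 95% interval 1.41 to 1.83, adjusted p = 6.05e-06).

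Cd83 was read by 2 probes that moved together from array to array. Probe 10633 had log2 ratios of 0.48, 0.42 and -0.060 in sets 1, 2 and 3 with treated RNA in Cy5, and of 0.81, 0.68 and 0.15 with treated RNA in Cy3. Probe 11452 had 0.50, 0.32 and 0.0051 when Cy5 carried the treated RNA, and 0.59, 0.67 and 0.14 when Cy3 did. In both probes and both dyes set 3 was the lowest and close to 0. The means were 0.41 ± 0.32 and 0.37 ± 0.26 (limma adjusted p = 0.0394 and 0.0393), and the probes differed by 0.044 ± 0.067.

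The call of Cd83 was not kept under all settings. With zeros kept the same means did not pass (limma, adjusted p = 0.233 and 0.199). Both probes had a value on all 6 arrays, so their ratios were unchanged. Only the set of probes tested and the variance prior taken from it differed. Neither probe passed without set 1 (means 0.30 and 0.28) or without set 2 (0.35 and 0.31), whereas without set 3 the means were 0.60 and 0.52 and both passed. Over the 9 fits that left out 1 set or 1 array, probe 10633 passed in 3 and probe 11452 in 2.

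**Figure D2:**
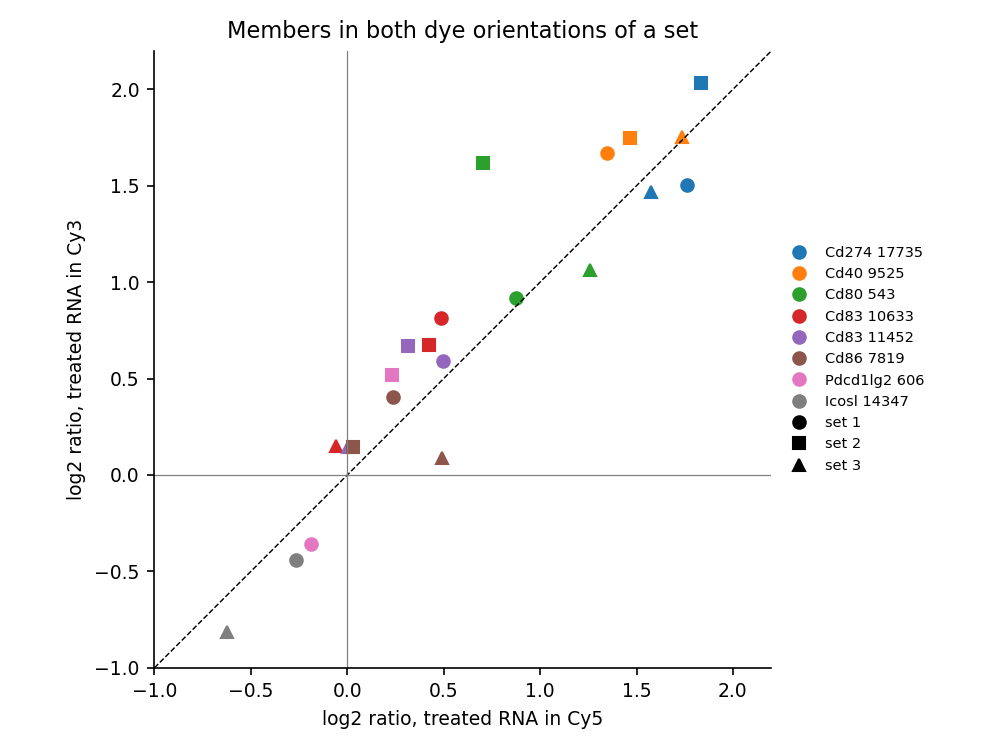
Log2 ratio of treated over untreated cells with the treated RNA in Cy5 (x axis) against the same set with it in Cy3 (y axis), for each probe and set with both values, with the line of equality dashed. The point farthest from the line is Cd80 in set 2, at 0.70 and 1.62.

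Cd274 and Cd40 changed places between the dye orientations. With treated RNA in Cy5 Cd274 averaged 1.72 and Cd40 1.52, and in Cy3 Cd40 averaged 1.72 and Cd274 1.67, while Cd80 followed in either dye, at 0.95 and 1.20. A dye effect, tested on the same ratios without turning their sign, was called in 0 of the 6 tested probes (limma, adjusted p = 0.17 to 0.89). At an unadjusted limma p under 0.05 it was seen in 1, Cd83 probe 10633 (adjusted p = 0.17), which read 0.28 on average when Cy5 carried the treated RNA and 0.55 when Cy3 did. Over all 12724 probes a dye effect was called in 0.181%.

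The order of the tested probes by difference was Cd274, Cd40, Cd80, Cd83 (both probes) and Cd86. Neighbours in this order were compared within arrays. Cd274 exceeded Cd40 by 0.076 ± 0.28, in only 3 of 6 arrays, so their order lies within the spread. Cd40 exceeded Cd80 by 0.55 ± 0.089, in 6 of 6 arrays, although their array ranges overlapped. Cd80 exceeded Cd83 probe 10633 by 0.66 ± 0.44, in 6 of 6 arrays, and their array ranges also overlapped. Cd83 probe 11452 exceeded Cd86 by 0.14 ± 0.32, in 5 of 6 arrays, which is within the spread. An exact two-sided sign-flip permutation test over 3 set means cannot give a p below 0.25, and the 15 pairs had exact adjusted p from 0.341 to 0.75, so these sizes are given without a call.

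**Figure D3:**
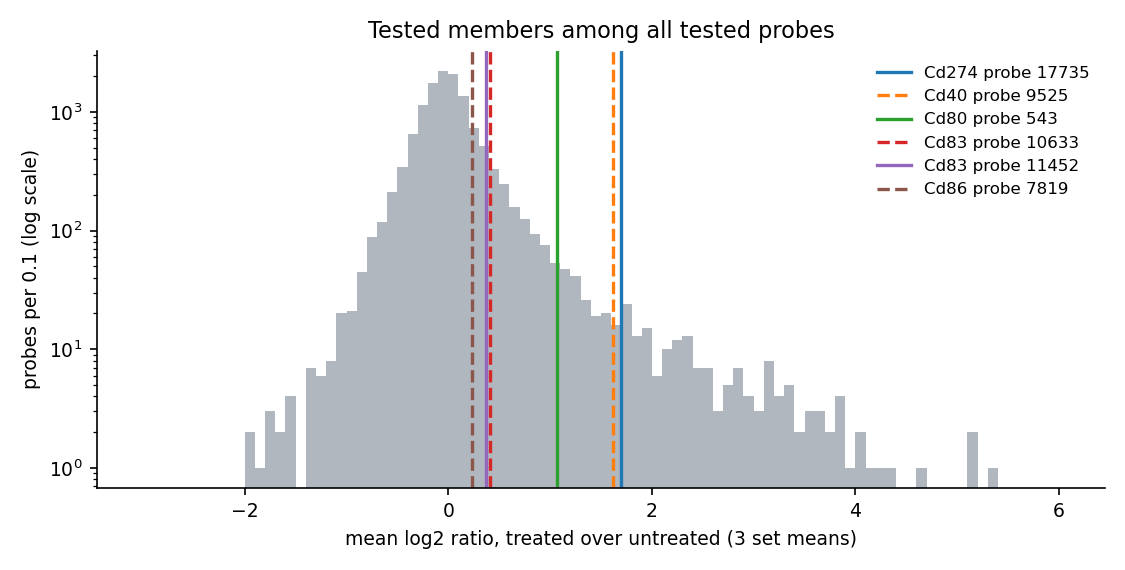
Number of probes (y axis, log scale) per 0.1 of the mean log2 ratio of treated over untreated cells (x axis) for the 12724 tested probes, with vertical lines at the 6 tested costimulatory and checkpoint probes. Cd274 and Cd40 lie above 98.7% and 98.6% of the probes, and Cd86 above 81.2%.

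The probes with the most similar ratios over the 6 arrays were sought by the root mean square difference from each member among 11058 named probes (11057 for Cd83). For Cd274 they were the histone gene H2bc4 (difference 0.136), the DNA exonuclease gene Trex1 (0.191) and the non-classical MHC gene H2-T23 (0.203). For Cd40 they were the metalloproteinase inhibitor Timp1 (0.123), the NF-kB cofactor Bcl3 (0.191) and the interferon signal transducer Stat2 (0.196). For Cd80 they were the acute-phase gene Saa1 (0.174), the transglutaminase Tgm2 (0.179) and the fatty acid transporter Cd36 (0.194). Cox16 and the lysosomal membrane gene Scarb2 were among the nearest to both Cd83 probes, with Clip2 for 1 probe and Nosip for the other, at 0.060 to 0.112. Csnk1a1, Stx7 and Fzd7 were nearest to Cd86, at 0.103 to 0.106. Likeness here means a similar size in 1 comparison.

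Related genes are given as lists, where a gene counts as changed when at least 1 of its probes passed. With values averaged per gene symbol, 14.3% of 9180 genes rose and 11.9% fell, 26.1% in all, and counts near these shares are background. Counting a gene by any passing probe can call more genes than averaging does, so these shares are only an approximate background. The T cell binding partners of the members come first. Of 5 such genes tested, 1 rose and 1 fell. Icos fell by 0.53 ± 0.28 (limma adjusted p = 0.0102) and was lower on all 6 arrays. Pdcd1, which encodes PD-1, rose by 0.83 ± 0.34 at 1 probe (adjusted p = 0.00194), with ratios from 0.50 to 1.29 that were lowest in set 2 and highest in set 3 in either dye. Its other probe gave -0.29 ± 0.16 (adjusted p = 0.0517), with all 3 arrays below 0 with treated RNA in Cy5 and all 3 above 0 in Cy3, and averaged over its probes Pdcd1 did not pass. Cd28 (0.071 ± 0.23 and -0.10 ± 0.21), Ctla4 (0.051 ± 0.34) and Cd40lg (-0.05 ± 0.10) did not pass either. With zeros kept, neither Icos (adjusted p = 0.134) nor Pdcd1 (adjusted p = 0.0946) passed in limma.

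Genes of CD40 signalling rose in 9 of 15 cases. The NF-kB brake gene Tnfaip3 was among the 9, at 0.61 ± 0.05 and 0.51 ± 0.22. The median over the 25 probes of the list was 0.33, against -0.01 over all tested probes. Of those 25 probes 13 rose, and the lower direction had 0 calls and 1 probe at an unadjusted p under 0.05 (limma). With zeros kept, 4 of the genes rose, and Birc3, Nfkb2 and Relb were not among them (limma adjusted p = 0.0517, 0.056 and 0.157). The adaptor Traf1 rose by 1.93 ± 0.10 and 1.58 ± 0.24 at its probes, and the ubiquitin ligase Birc3 by 0.81 ± 0.19. The smallest changes that passed were Relb, at 0.33 ± 0.19, Tank, at 0.47 ± 0.05, and Nfkb2, at 0.47 ± 0.12. Relb and Nfkb2 encode the subunits of the non-canonical NF-kB dimer. Traf2, at 0.12 ± 0.06, -0.27 ± 0.13 and 0.18 ± 0.25, and Traf6, at 0.09 ± 0.05, did not pass.

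A list of interferon receptor, JAK, STAT and IRF genes, a known route to PD-L1 induction, also held inhibitors of that route. Of its 14 tested genes 9 rose, with a median of 0.45 over 22 probes. The feedback inhibitor Socs1 was among the 9, at 1.02 ± 0.23 and 0.71 ± 0.11. The lower direction had 0 calls and 0 probes at an unadjusted p under 0.05 (limma). With zeros kept 9 also rose, but Ifnar2 dropped out and Tyk2 entered at 1 probe (0.17 ± 0.0074, limma adjusted p = 0.0417). In the main fit that Tyk2 probe did not pass (limma adjusted p = 0.166). Stat2 rose by 1.57 ± 0.11, the kinase Jak2 by 1.27 ± 0.14 and 1.24 ± 0.15, and the transcription factor Irf1 by 0.70 ± 0.16. Jak1, at 0.28 ± 0.05, Ifnar1, at 0.41 ± 0.08, and Ifnar2, at 0.50 ± 0.26, were the lowest that passed. The other Ifnar2 probe was at 0.12 ± 0.03 (limma adjusted p = 0.337), and with zeros kept the passing one was lost (adjusted p = 0.136). The receptor for interferon gamma did not pass, with Ifngr1 at -0.12 ± 0.17 and -0.12 ± 0.05 and Ifngr2 at 0.15 ± 0.05.

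Of 6 tested genes that act on PD-L1, CD86 or MHC class II protein after synthesis, 1 rose, the kinase subunit Csnk2a1, at 0.39 ± 0.28 and 0.36 ± 0.27 at 2 probes, while another probe gave -0.11 ± 0.42. The 2 probes did not pass with zeros kept (limma adjusted p = 0.211 and 0.223), where Cops5 passed instead (0.17 ± 0.02, adjusted p = 0.0492), and averaged per gene symbol Csnk2a1 did not pass. Cmtm6, which keeps PD-L1 at the cell surface, was at 0.017 ± 0.064 (limma adjusted p = 0.911). Marchf8, a ubiquitin ligase that removes CD86 and MHC class II from the surface, was at 0.17 ± 0.06 (adjusted p = 0.179).

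MHC class II molecules present the peptide that gives the T cell its first signal. Of 10 tested genes of these molecules, their peptide loading and their regulation, 4 rose, with a median of 0.22 over 11 probes. Of the chain genes of presenting class II molecules H2-Eb1 rose, by 0.51 ± 0.12, whereas H2-Ab1 (0.22 ± 0.13) did not pass. H2-Aa, listed at 0 on 1 array and so not tested, was above 0 on the other 5, with a mean of 0.26. The peptide loading genes H2-DMa (-0.20 ± 0.06) and H2-Oa (-0.21 ± 0.08) did not pass. The latter pair were the 2 probes of the list that were lower at an unadjusted limma p under 0.05, each on 5 of 6 arrays. The protease Ctss rose by 0.67 ± 0.12 and 0.59 ± 0.26, the invariant chain Cd74 by 0.54 ± 0.24 and the regulator Rfx5 by 0.33 ± 0.13. The master regulator of class II genes, Ciita, was at -0.12 ± 0.25 without passing. With zeros kept, 1 of these genes rose.

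**Figure D4:**
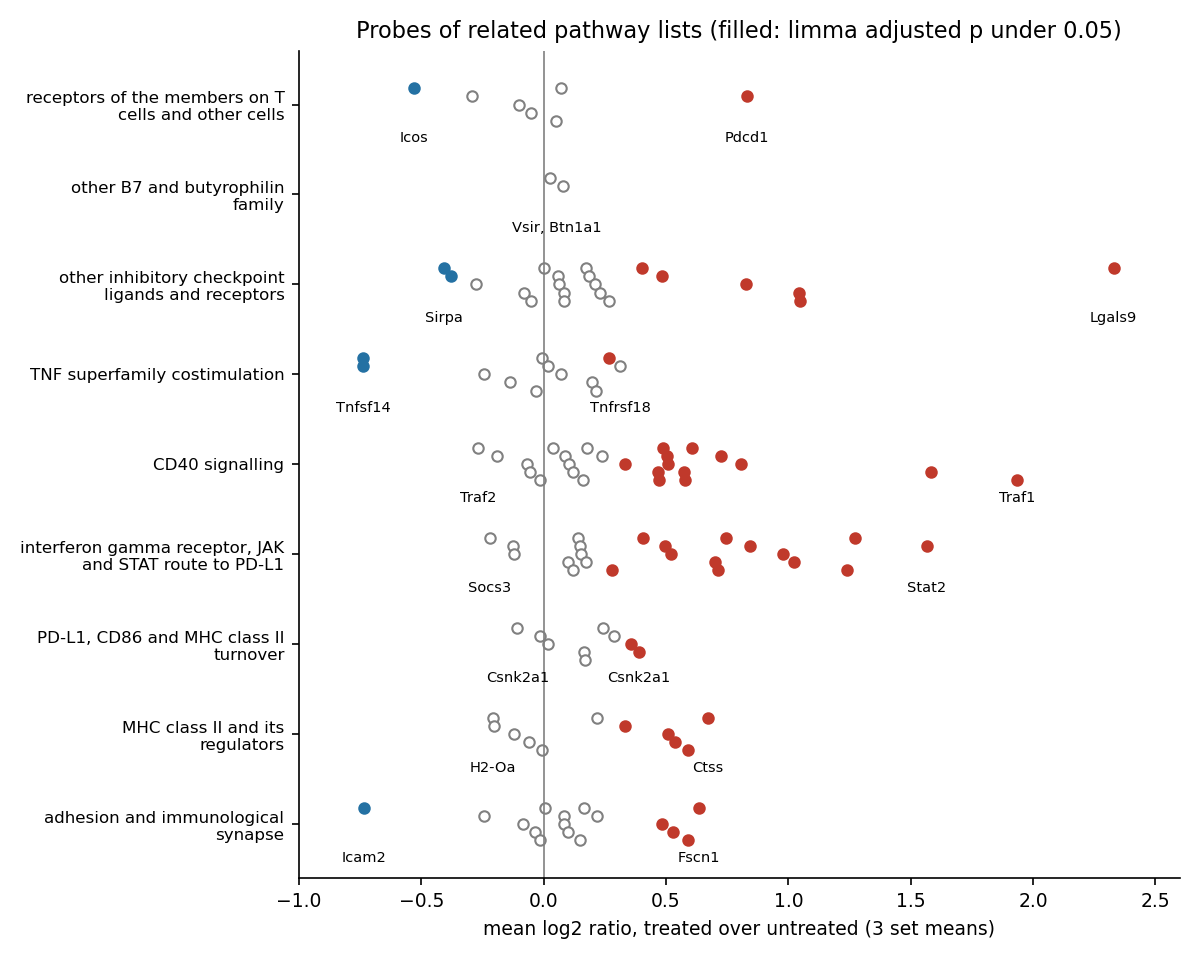
Mean log2 ratio of treated over untreated cells (x axis) for each tested probe of 9 related gene lists (y axis), filled where the limma adjusted p was under 0.05, red for higher and blue for lower, with the lowest and the highest probe of each list named. The filled points of the CD40 signalling and interferon lists lie between 0.28 and 1.93, and Lgals9 at 2.33 is the farthest to the right.

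Among 15 other checkpoint genes tested, 4 rose and 1 fell, with a median of 0.17 over 21 probes. Averaged per gene symbol 3 rose and 1 fell, against 14.3% and 11.9% of all genes. With zeros kept 2 rose and 1 fell. Lgals9, which encodes galectin-9, a ligand of the checkpoint receptor TIM-3, rose by 2.33 ± 0.30 and exceeded every member's mean. A Lilrb4a probe, listed at 0 on 1 array and so not tested, was above 0 on the other 5. Its mean of 1.92 also exceeded every member's mean, but with zeros kept it did not pass (limma adjusted p = 0.0652). The other Lilrb4a probe was listed at 0 on all 6 arrays. The "don't eat me" ligand Cd47 rose by 1.05 ± 0.14, 1.04 ± 0.03 and 0.48 ± 0.40 at its 3 probes, and its receptor Sirpa fell by 0.38 ± 0.04 and 0.41 ± 0.14. Pvr, a ligand of TIGIT, rose by 0.83 ± 0.34 at 1 probe and was at 0.0015 ± 0.03 at the other. The tryptophan-degrading enzyme Ido1 rose by 0.40 ± 0.12 at 1 probe, and its arrays with treated RNA in Cy5 gave -0.12, -0.21 and 0.17.

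TNF-family costimulatory genes changed in 2 of 10 cases, against 26.1% of all genes. Of the 10, 1 rose and 1 fell, also when averaged per gene symbol. Tnfsf14, which encodes LIGHT, fell by 0.74 ± 0.20 and 0.74 ± 0.13 at its probes and was lower on all 6 arrays. Cd70, the ligand of CD27, was at 0.27 ± 0.05 (limma adjusted p = 0.0486), with 1 array below 0. Of 12 adhesion and synapse genes, 3 rose and 1 fell, which is near the shares over all genes (14.3% and 11.9%). The actin-bundling gene Fscn1 rose by 0.63 ± 0.33 at 1 of 2 probes, the adhesion gene Alcam by 0.59 ± 0.29 and the integrin chain Itgb2 by 0.53 ± 0.11 and 0.48 ± 0.07, and Icam2 fell by 0.74 ± 0.34. With zeros kept, 1 of these adhesion genes rose and Icam2 did not pass (limma adjusted p = 0.112). The other B7-family genes tested were Btn1a1, at 0.079 ± 0.10, and Vsir, at 0.025 ± 0.045, and neither passed.

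Markers of macrophages and of other presenting cells were read beside these results. Of 5 macrophage markers tested, Fcgr1 (1.96 ± 0.15) and Adgre1 (0.94 ± 0.09) rose, Csf1r fell by 0.53 ± 0.22, and Cd68 (0.018 ± 0.063) and Mertk (0.05 ± 0.13) did not pass. Fscn1 was the 1 of 4 dendritic cell markers that rose, at 1 probe, while its other probe was at -0.034. The 6 tested probes of these markers ranged from -0.24 to 0.63. The dendritic cell marker Ccr7 was listed at 0 on all 6 arrays. Among B cell markers 1 of 5 rose, Cd79a by 0.63 ± 0.11, and their 6 probes ranged from -0.15 to 0.63. Among T cell markers 1 of 7 rose, Cd5 by 0.55 ± 0.26, and their 8 tested probes ranged from -0.25 to 0.55. A Cd8a probe listed at 0 on 1 array, and so not tested, was at -1.14 and below 0 on the other 5 arrays, and averaged per gene symbol 1 T cell marker rose and 1 fell. With zeros kept, limma did not call Csf1r (adjusted p = 0.0977), Fscn1 (adjusted p = 0.133) or Cd5 (adjusted p = 0.113). The part of these markers in the results above was not tested.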

How the data were processed

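The authors deposited 1 log ratio of Cy5 over Cy3 per probe and array, read here as log2. Not given in the sources used here were background correction, dye normalization and log base. The labels call the Cy5 RNA test and the Cy3 RNA control, which gave the direction. Across probes, arrays correlated at 0.74 to 0.81 within an orientation and at -0.78 to -0.56 between orientations, before ratios with treated RNA in Cy3 were multiplied by -1. Exact zeros, 7.97% to 17.8% of an array's values, were set to missing, which left 12724 of 16281 probes with 6 values.

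The orientations of each set were averaged, and limma tested whether the mean of the 3 sets was 0 (version 3.58.1, R 4.3.3, lmFit and eBayes, two-sided, Benjamini-Hochberg). A set counted as 1 replicate. The number of arrays limits the precision. The fit was tested on simulated ratios. Probes were named through the platform annotation, where 13738 had 1 symbol. Members and lists were chosen with earlier results of these data known. Named genes were taken from the members and their partners, the 3 highest and 3 lowest called probes of each list, genes whose probes differ in direction, and the 3 probes nearest to each member. Irf1, Socs1, Tyk2, Tnfaip3, Cops5, H2-Aa, H2-Ab1, H2-DMa, H2-Oa, Lilrb4a, Cd8a, Ccr7, Mertk, Cd68 and the other B7 genes were named after their values were seen. Alternatives concerned zeros, replication unit, centring, scale, the variance prior, dye orientation and left-out arrays.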

Additional observations from a re-analysis of the deposited data

How the results depend on the processing

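Cd274, Cd40 and Cd80 passed under all 19 alternatives run for each, with values of 1.58 to 1.78, 1.52 to 1.72 and 0.92 to 1.22, and Cd86 did not pass under any of 19 (adjusted p = 0.0584 to 0.325). The Cd83 probes passed in 11 of 19 and 9 of 18. The count of member probes that rose was 5, and it was 3 with exact zeros kept and 3 with only the arrays with treated RNA in Cy5. It was 3 to 5 when 1 set or 1 array was left out. Over all probes 1887 rose and 1556 fell. With zeros kept 903 rose and 504 fell, and with only treated RNA in Cy5 1249 rose. Leaving out 1 set or 1 array gave 1172 to 1683 that rose and 819 to 1379 that fell, with the lowest counts without the set 2 array whose treated RNA was in Cy3; 833 fell without all of set 2 and 880 without set 3 in Cy3. The cause was not tested.

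The set numbers paired the orientations unevenly, most clearly in set 1. The deviations of the arrays of sets 1, 2 and 3 from their orientation's mean correlated at 0.53, 0.077 and 0.17 between dyes, and 5 of 6 arrays correlated best with their own set. The 6-array fit with the set as a random replicate block estimated a consensus correlation of 0.35 within a set. It called 1885 probes higher and 1520 lower, and 5 member probes higher. Without that block it called 2242 and 2051, and again 5 member probes. No called direction of a member reversed under the alternatives run.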
